A study of Mus musculus with 4 samples.

Results

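Genes of bone matrix, of bone-forming cells and of the collagen family were followed in bone marrow cells of C57BL/6N mice. The set comprised every gene whose only annotated symbol had the form of a collagen chain, 44 genes, and 12 of 16 further genes of osteoblasts, mineralisation, proteoglycans and PDGF signalling. The other 4 of these 16 were not analysed here. The 56 members were taken from 19938 measured genes, and each was represented by its brightest probe set (54 members had a single probe set). The mice received 1 intraperitoneal injection, either of phosphate-buffered saline (PBS, replicates 1 and 3) or of 50 µg lipopolysaccharide (LPS, replicates 1 and 2), the LPS being equal parts of Escherichia coli K12 and Salmonella minnesota material. Marrow was taken 8 h later, and each of the 4 samples was hybridised to its own GeneChip Mouse Gene 1.0 ST array. No genotype other than the strain is given. Neither the age of the mice nor whether a sample was pooled is stated in the sources used here. The part of technical variation in the spread between samples was not tested.

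Bone is built by osteoblasts, which secrete a scaffold of type I collagen and load it with non-collagenous proteins that guide mineral deposition. Osteoblasts that become buried in that matrix turn into osteocytes, which regulate phosphate and further mineralisation. Other collagens have separate roles, such as the type IV networks of the basement membranes around vessels and the type VI microfilaments of soft tissue. Osteoblasts line the bone surface, so marrow preparations hold them as a minor population beside the haematopoietic cells.

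Each array had a median log2 value of 8.01 to 8.03 and a lower quartile of 6.66 to 6.72. Of 16 measured haematopoietic markers, 15 lay above the median gene of the array on all 4 arrays, and the exception was the pre-B-cell gene Vpreb1. No member had a mean under the lower quartile of gene means, while 17 had a mean under the median. Background levels per probe set were not used, and the values of different probe sets were not compared as amounts of RNA.

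The results below describe a group of bone genes that separated the PBS arrays and 3 collagen genes called for LPS against PBS. The 3 were Col14a1 and the basement membrane pair Col4a1 and Col4a2, a share of members (5.36%) close to that of all genes (3.66%). The sequences around the starts of 5 of the bone and collagen genes are given, from RefSeq on GRCm38.p6. Each runs from 250 bases before to 50 bases after the annotated start. The 5 were chosen among members with a window after their matches to the motifs had been seen. Capitals mark a match on either strand to one of 3 short motifs. The GC box was searched as GGGCGG. The TATA box was searched as TATAAA. The third motif, the CCAAT box, was searched by the letters of its name, and no motif contains another. Col1a2 lies at chr6:4505368-4505667 on the plus strand and Ibsp at chr5:104299037-104299336 on the plus strand. Sparc lies at chr11:55420031-55420330 on the minus strand. Col4a1 lies at chr8:11312777-11313076 on the minus strand and Col4a2 at chr8:11312555-11312854 on the plus strand.
Col1a2: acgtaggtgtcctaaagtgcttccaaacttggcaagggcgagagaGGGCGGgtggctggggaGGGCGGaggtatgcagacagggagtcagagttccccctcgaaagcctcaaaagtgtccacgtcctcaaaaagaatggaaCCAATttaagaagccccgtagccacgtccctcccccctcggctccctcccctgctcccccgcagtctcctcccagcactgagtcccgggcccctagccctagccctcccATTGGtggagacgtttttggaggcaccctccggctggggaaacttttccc
Ibsp: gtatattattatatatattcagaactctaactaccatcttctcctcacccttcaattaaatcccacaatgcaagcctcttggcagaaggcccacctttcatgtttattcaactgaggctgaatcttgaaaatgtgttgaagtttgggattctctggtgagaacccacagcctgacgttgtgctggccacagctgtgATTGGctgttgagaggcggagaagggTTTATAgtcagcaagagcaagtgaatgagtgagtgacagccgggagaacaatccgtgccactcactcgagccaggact
Sparc: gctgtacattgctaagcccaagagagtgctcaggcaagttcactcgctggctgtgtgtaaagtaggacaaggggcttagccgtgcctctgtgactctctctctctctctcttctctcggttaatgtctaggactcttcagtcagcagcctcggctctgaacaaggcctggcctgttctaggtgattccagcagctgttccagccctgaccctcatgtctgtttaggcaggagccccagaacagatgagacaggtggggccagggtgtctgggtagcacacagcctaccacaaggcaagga
Col4a1: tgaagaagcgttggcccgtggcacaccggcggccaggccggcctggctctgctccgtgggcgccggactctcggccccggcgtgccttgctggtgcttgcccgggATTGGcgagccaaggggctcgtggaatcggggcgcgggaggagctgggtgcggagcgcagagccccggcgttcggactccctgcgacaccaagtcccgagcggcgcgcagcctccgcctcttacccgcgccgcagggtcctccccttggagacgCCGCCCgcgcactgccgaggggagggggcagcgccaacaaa
Col4a2: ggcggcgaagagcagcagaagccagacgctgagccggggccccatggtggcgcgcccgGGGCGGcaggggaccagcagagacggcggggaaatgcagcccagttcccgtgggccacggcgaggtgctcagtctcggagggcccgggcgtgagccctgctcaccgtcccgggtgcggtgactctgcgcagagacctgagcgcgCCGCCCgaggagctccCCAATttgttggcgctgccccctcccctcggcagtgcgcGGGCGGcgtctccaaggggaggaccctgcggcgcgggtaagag
The Col1a2 window held 2 GC boxes and 2 CCAAT boxes, that of Ibsp held a TATA box and a CCAAT box, and that of Sparc held none of the 3 motifs. The windows of Col4a1 and Col4a2 overlapped by 78 bases, with annotated starts 21 bases apart on opposite strands. They held 1 and 3 GC boxes with 1 CCAAT box each. The GC box of Col4a1 lay in the overlap and was the last of the 3 of Col4a2, read on the other strand. Windows were found for 43 of the 56 members (49 windows). Of these 49 windows 51.0% held a GC box, 16.3% a TATA box and 34.7% a CCAAT box, beside 35.7%, 13.6% and 37.4% of all 32851 windows. These matches describe letters in the window, not sites in use.

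The largest feature of the bone genes was a gap between the PBS arrays. In 17 of the 56 members PBS replicate 3 stood at least 0.5 log2 above PBS replicate 1, beside 1.43% of all genes. In 11 members it stood at least 1 log2 above, a difference of at least 2-fold, beside 0.366% of all genes. The 17 genes were 11 of the 12 non-collagen members and 6 collagens. The member just inside 0.5 was Bgn at 0.51 and the next below it was Col3a1 at 0.36. A gap is a comparison of single arrays and has no test. The set was chosen with earlier results of these data known, so these counts are a description.

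**Figure D1:**
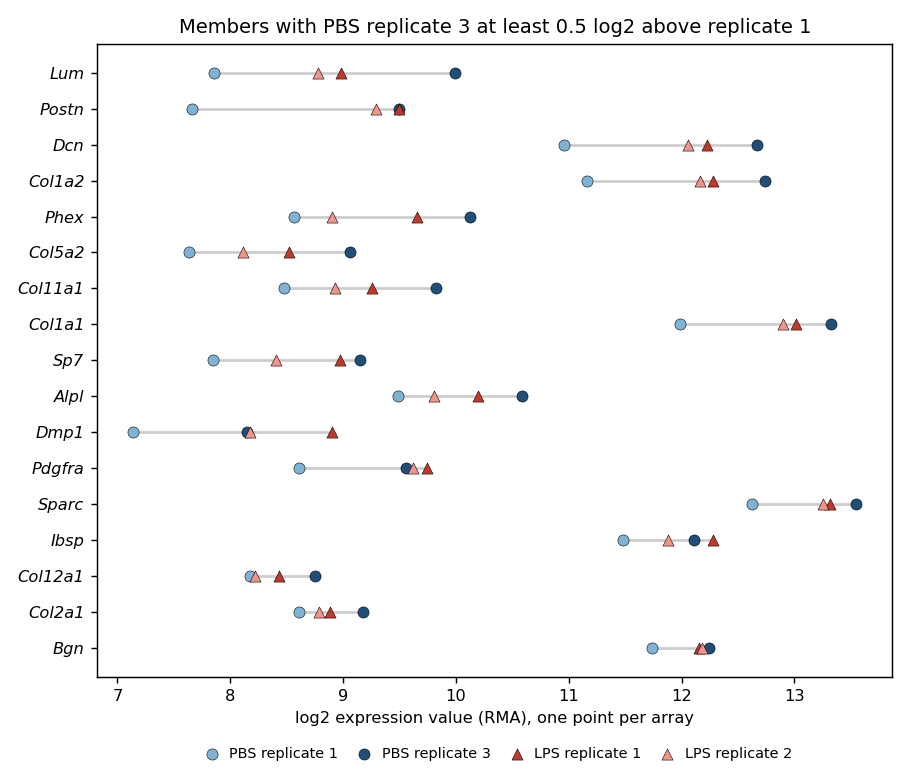
Log2 expression value of each array (x axis) for the 17 members (rows) whose PBS replicate 3 lay at least 0.5 log2 above PBS replicate 1, in order of that gap; circles are PBS arrays and triangles LPS arrays, and the grey line spans the 4 values. PBS replicate 1 is the lowest array in every row, and in 14 of the 17 rows both LPS arrays lie between the PBS arrays.

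Lum and Dcn encode lumican and decorin, small leucine-rich proteoglycans that bind collagen fibrils. Lum had a log2 value of 7.85 in PBS replicate 1, 9.996 in PBS replicate 3, 8.98 in LPS replicate 1 and 8.78 in LPS replicate 2. The PBS arrays thus lay on either side of both LPS arrays, 2.14 log2 or 4.41-fold apart. Among all 19938 genes only 2 had a larger rise from PBS replicate 1 to replicate 3. Dcn had the same arrangement at a higher signal, with 10.96 and 12.67 on the PBS arrays (replicate 1 first) and 12.23 and 12.06 under LPS. Lum and Dcn are adjacent protein-coding genes on chromosome 10 (RefSeq, GRCm38.p6).

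Postn encodes periostin, a matrix protein of periosteum and of tissues under load. It had 7.66 and 9.50 in PBS replicates 1 and 3, against 9.49 and 9.30 in LPS replicates 1 and 2, so 3 arrays stood together and PBS replicate 1 stood 1.63 log2 or more below them. Bgn, which encodes the proteoglycan biglycan, had 11.73, 12.25, 12.15 and 12.18 in the same order and the smallest gap of the 17. Its LPS arrays again lay between the PBS arrays, as in all 4 genes of this proteoglycan and periostin group.

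The bone collagens divided by chain. Col1a1 and Col1a2 encode the chains of type I collagen, the main protein of bone. PBS replicate 1 had 11.99 and PBS replicate 3 had 13.33 for Col1a1, with the LPS arrays at 13.02 and 12.90. PBS replicate 1 had 11.16 and PBS replicate 3 had 12.74 for Col1a2, with the LPS arrays at 12.28 and 12.16. The gaps between PBS arrays were 1.34 and 1.58, while the LPS arrays of each gene lay 0.12 apart. Col5a2, a chain of the type V collagen that is built into type I fibrils, had 7.63, 9.06, 8.52 and 8.11 and a PBS gap of 1.43.

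Its partner chain Col5a1 had a PBS gap of 0.28, and Col3a1, a fibril collagen of soft tissue, one of 0.36. Col3a1 and Col5a2 are adjacent genes on chromosome 1, so neighbours here differed by more than 1 log2 in the size of the gap. In all 5 bone collagens both LPS arrays lay inside the PBS range.

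Col11a1 and Col2a1, fibril collagens best known from cartilage, were also among the 17, together with the fibril-associated Col12a1. Col11a1 had 8.48, 9.83, 9.26 and 8.93 and a gap of 1.35. Col2a1 and Col12a1 had gaps of 0.57 and 0.58. Other cartilage markers, such as the aggrecan gene Acan (a gap of -0.10) and Sox9 (0.01), showed no such gap: 0 of 11 had one of 0.5 or more. The mean log2 value over these 11 was 6.465 in PBS replicate 1 and 6.431 in replicate 3. The lower quartiles of these arrays were 6.687 and 6.665. A gap can be hidden at such low signal, so the count does not show that cartilage genes behaved differently.

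Osteoblast genes followed the type I collagen genes. Sp7 encodes osterix, a transcription factor required for osteoblast formation, and had 7.85, 9.15, 8.98 and 8.41 in PBS replicates 1 and 3 and then LPS replicates 1 and 2. Alpl encodes tissue-nonspecific alkaline phosphatase, which frees phosphate for mineral, and had 9.48, 10.58, 10.20 and 9.80. Sparc encodes osteonectin, a collagen-binding protein abundant in bone, and had 12.62, 13.55, 13.32 and 13.25. In these 3 genes PBS replicate 1 was lowest, PBS replicate 3 highest, and LPS replicate 2 below LPS replicate 1.

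Ibsp and Dmp1, adjacent on chromosome 5, encode acidic mineral-binding proteins, bone sialoprotein and dentin matrix protein 1. Ibsp had 11.48 and 12.11 in PBS, replicate 1 first, and 12.28 and 11.88 in LPS. Dmp1, a gene of osteocytes, had 7.14 and 8.15 in PBS, then 8.90 and 8.17 in LPS, so that the LPS arrays exceeded the PBS arrays, LPS replicate 2 by 0.02 only. Phex, an osteocyte endopeptidase gene that acts in phosphate balance, had 8.57 and 10.13 in PBS and 9.65 and 8.90 in LPS. The LPS arrays of Dmp1 and Phex lay 0.73 and 0.75 log2 apart, more than those of any other member. 

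Of the PDGF receptor genes, which mark mesenchymal cells, Pdgfra behaved as the osteoblast genes did in PBS and Pdgfrb did not. Pdgfra had 8.61 and 9.56 in PBS, replicate 1 first, and 9.74 and 9.62 in LPS. Pdgfrb had 9.42, 9.44, 9.47 and 9.55, a range of 0.13 over all 4 arrays, and it was the single non-collagen member without a gap of 0.5.

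The 17 genes kept much the same order of arrays. From the lowest, the order PBS replicate 1, LPS replicate 2, LPS replicate 1, PBS replicate 3 was seen in 16 of the 56 members, beside 4.12% of all genes, and 13 of these 16 were among the 17. LPS replicate 2 was below LPS replicate 1 in 16 of the 17 genes, Bgn being the exception, and in 6 of the other 39, beside 50.3% of all genes. Over the 56 members the PBS gap and the LPS gap (replicate 2 minus replicate 1) had r = -0.71, and over all genes r = -0.28. These values describe genes measured on the same 4 arrays, which are not independent points.

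The spread within PBS thus exceeded the group difference in most members. The gap between the PBS arrays was larger than the difference between group means in 40 of 56 members, or 71.4%, beside 53.3% of all genes. Both LPS arrays lay inside the PBS range in 21 members, or 37.5%, beside 14.6% of all genes. Over all 56 members the median absolute PBS gap, LPS gap and LPS difference were 0.14, 0.12 and 0.07 log2, close to the 0.11, 0.10 and 0.10 over all genes. The 44 collagen genes had medians of 0.11, 0.11 and 0.06. The large gaps lay in the 12 non-collagen members, with medians of 1.05, 0.20 and 0.20, and in the few collagens named above.

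**Figure D2:**
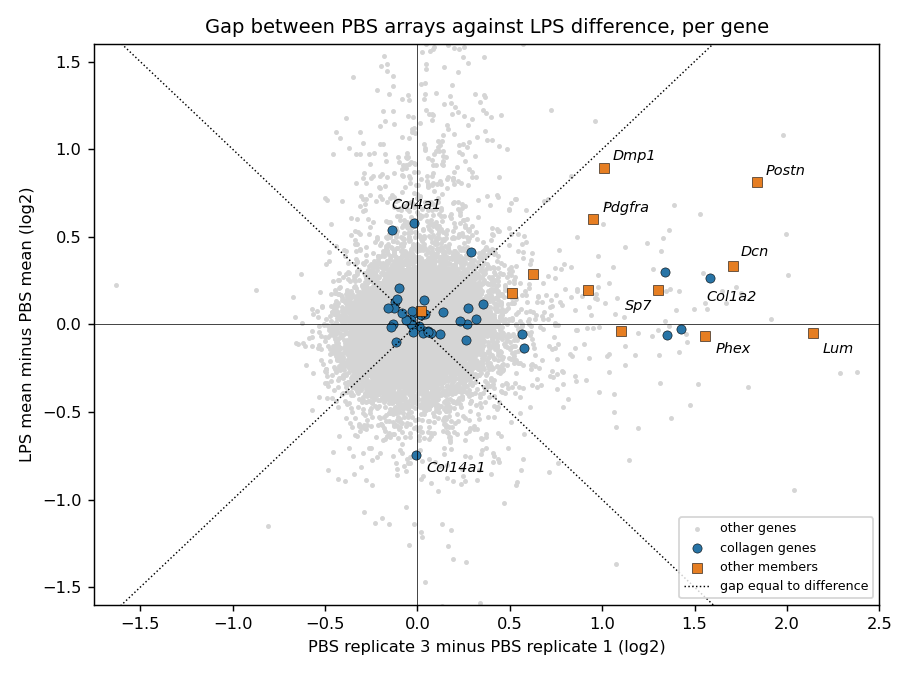
Each point is a gene, with the gap between PBS arrays on the x axis and the LPS difference on the y axis, both in log2; blue circles are the 44 collagen genes, orange squares the 12 other members and grey points all other genes, of which 78 lie beyond the y axis limits. Members spread to the right of 0 near the horizontal axis, with Lum at a gap of 2.14 and a difference of -0.05, while Col4a1 and Col14a1 lie at gaps of -0.02 and -0.01.

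LPS was compared with PBS for all 19938 genes in 1 limma fit on the log2 values, and a gene was called at a Benjamini-Hochberg adjusted p under 0.05. Of the 56 members 3 were called, or 5.36%, beside 3.66% of all genes. Col4a1 and Col4a2 rose (2.39% of all genes were called higher) and Col14a1 fell (1.27% were called lower). The share of members called was thus close to the background. None of the 17 genes with a PBS gap of 0.5 or more was called, but the PBS gap enters the variance of the fit. Choosing genes by a large gap therefore works against a call. The median LPS difference was 0.04 over the members and -0.01 over all genes. LPS and PBS arrays did not overlap in 13 members, or 23.2%, beside 44.9% of all genes. With 2 arrays a group, the smallest two-sided p of an exact permutation test is 0.333, so the calls rest on the variance that limma borrows across genes.

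Col4a1 and Col4a2 encode the chains of the most widespread type IV collagen, the network of vascular basement membranes. Col4a1 had 8.27 and 8.25 in PBS, replicate 1 first, and 8.74 and 8.94 in LPS. Col4a2 had 8.08 and 7.94 in PBS and 8.48 and 8.61 in LPS. The groups did not overlap in either gene, and the PBS gaps were -0.02 and -0.14. The LPS difference of Col4a1 was 0.58 log2 (SE 0.101, 95% interval 0.34 to 0.81, limma adjusted p = 0.0229), a 1.49-fold rise. Col4a2 rose by 0.54 (SE 0.0985, 95% interval 0.31 to 0.77, limma adjusted p = 0.0286), or 1.45-fold.

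The genes stand side by side on chromosome 8, with the overlapping start windows printed above. Neither passed without LPS replicate 2 (limma adjusted p = 0.111 and 0.126) or with all probe sets in the fit (0.107 and 0.121). The other type IV chains, Col4a3 to Col4a6, had differences from -0.04 to 0.14 and were not called.

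Col14a1 encodes a fibril-associated collagen that binds decorin and regulates fibril growth. It had 8.80 and 8.79 in PBS, then 8.08 and 8.02 in LPS. The arrays of a group lay within 0.07 log2 of each other, and the groups did not overlap. Col14a1 fell by 0.75 log2 (SE 0.0873, 95% interval -0.95 to -0.54, limma adjusted p = 0.00318), so that PBS was 1.68-fold above LPS. With each array left out in turn its limma adjusted p ran from 0.00271 to 0.0109, and with all probe sets in the fit it was 0.0284.

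**Figure D3:**
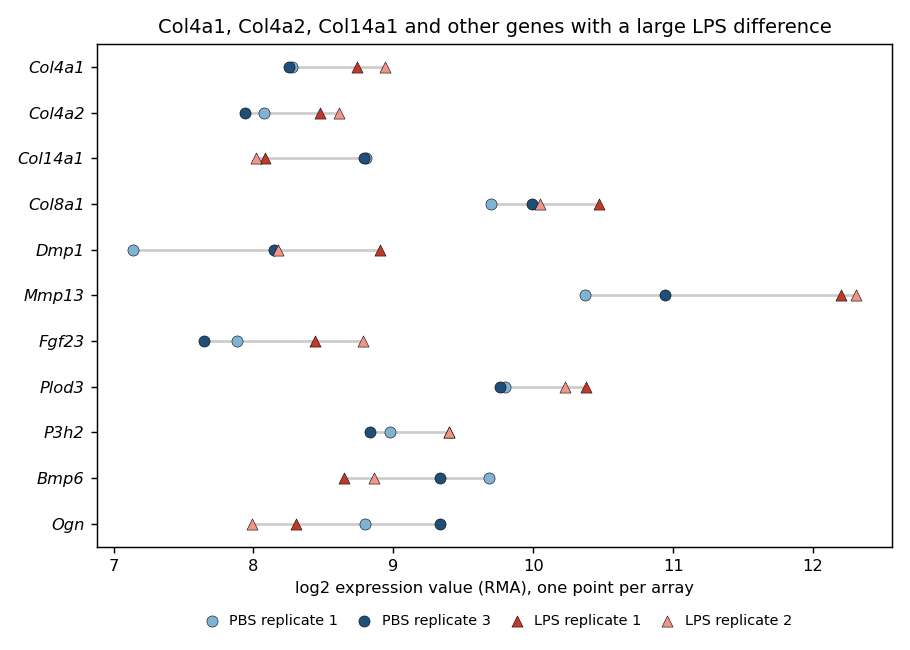
Log2 expression value of each array (x axis) for the 3 called members, the uncalled members Col8a1 and Dmp1 with the next lowest unadjusted p-values, and 6 called genes of the pathway lists; circles are PBS arrays, triangles LPS arrays and the grey line spans the 4 values. PBS values of Col4a1 and Col14a1 nearly coincide and those of Col4a2 have a gap of -0.14, whereas those of Dmp1 lie 1.01 log2 apart.

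At an unadjusted limma p under 0.05, Col8a1 and Dmp1 joined these 3 genes. These 5 of 56 members were a smaller share than the 3149 of all 19938 genes under that threshold. Col8a1, a short-chain network collagen of vessel walls and marrow stroma, had 9.70 and 9.99 in PBS and 10.47 and 10.05 in LPS, a difference of 0.41 (SE 0.157, limma adjusted p = 0.251). Dmp1 had the largest positive difference of all members, 0.89 log2 (SE 0.330, 95% interval 0.12 to 1.66, limma adjusted p = 0.238). The differences of Postn (0.81, SE 0.481, limma adjusted p = 0.485) and Pdgfra (0.60, SE 0.260, limma adjusted p = 0.319) were not called either, although that of Postn exceeded those of the called collagens.

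The type VI collagen genes Col6a1 and Col6a2, adjacent on chromosome 10, had small differences of 0.15 (95% interval -0.06 to 0.36) and 0.21 (-0.01 to 0.43). Neither was called (limma adjusted p = 0.507 and 0.344), and their PBS gaps were -0.11 and -0.10. The 30 collagen genes not named by rule for their level, gap or difference had LPS differences between -0.13 and 0.14 and limma adjusted p-values of at least 0.498. Their PBS gaps ran from -0.16 to 0.58, and in 21 of them the PBS gap exceeded the group difference, beside 53.3% of all genes.

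By family, the median PBS gap was 1.34 for the 5 bone collagens, 0.29 for the 6 other fibril-forming chains, -0.02 for 12 basement membrane and network chains, -0.03 for 6 type VI chains, -0.01 for 9 fibril-associated chains and 0.01 for 6 transmembrane and other chains. Among the non-collagen groups the median was 1.77 for the proteoglycans with periostin, 1.28 for Dmp1 and Phex, 0.92 for Sparc, Alpl and Ibsp and 0.49 for the PDGF receptors. Not every osteocyte gene shared the gap of Dmp1 and Phex. The sclerostin gene Sost, the matrix phosphoglycoprotein gene Mepe and Fgf23, which are no members, had gaps of -0.17, -0.16 and -0.24. Mepe had 5.075 and 4.919 in PBS, under the lower quartile of the arrays, where a gap can be hidden.

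For the 17 genes, the fit allowed wide ranges for the LPS effect. Their SEs lay between 0.157 and 0.558, beside a median of 0.097 over all genes. Sp7 had a difference of 0.19 (95% interval -0.68 to 1.07, limma adjusted p = 0.89), Col1a1 one of 0.30 (-0.53 to 1.13, limma adjusted p = 0.78) and Alpl one of -0.03 (-0.76 to 0.69, limma adjusted p = 0.983). The interval of Lum, around -0.05, ran from -1.35 to 1.25. A change of 2-fold in either direction thus lay inside the interval of Lum, and the missing call does not show that these genes were equal in the groups. The interval of Col1a2 was -0.70 to 1.23 and that of Ibsp, the narrowest of the mineral proteins, -0.20 to 0.77.

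The direction of the LPS difference depended on which PBS array it was set against. Over all 56 members the LPS mean lay above PBS replicate 1 in 41 and below PBS replicate 3 in 33. The 17 genes were chosen by their PBS gap, which favours opposite signs against the PBS arrays, so their values are a description. Set against PBS replicate 1, the LPS mean was higher in all 17 genes, by a median of 0.71 log2. Set against PBS replicate 3, it was lower in 15 of them, with a median of -0.42, and only Dmp1 (0.39) and Pdgfra (0.13) stayed above 0. The LPS mean of Lum was 1.02 above PBS replicate 1 and, as a difference from PBS replicate 3, -1.12. The pairs for Phex were 0.71 and -0.85, for Col5a2 0.69 and -0.74, for Sp7 0.84 and -0.46, for Col1a2 1.06 and -0.52, and for Postn 1.73 and -0.10.

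**Figure D4:**
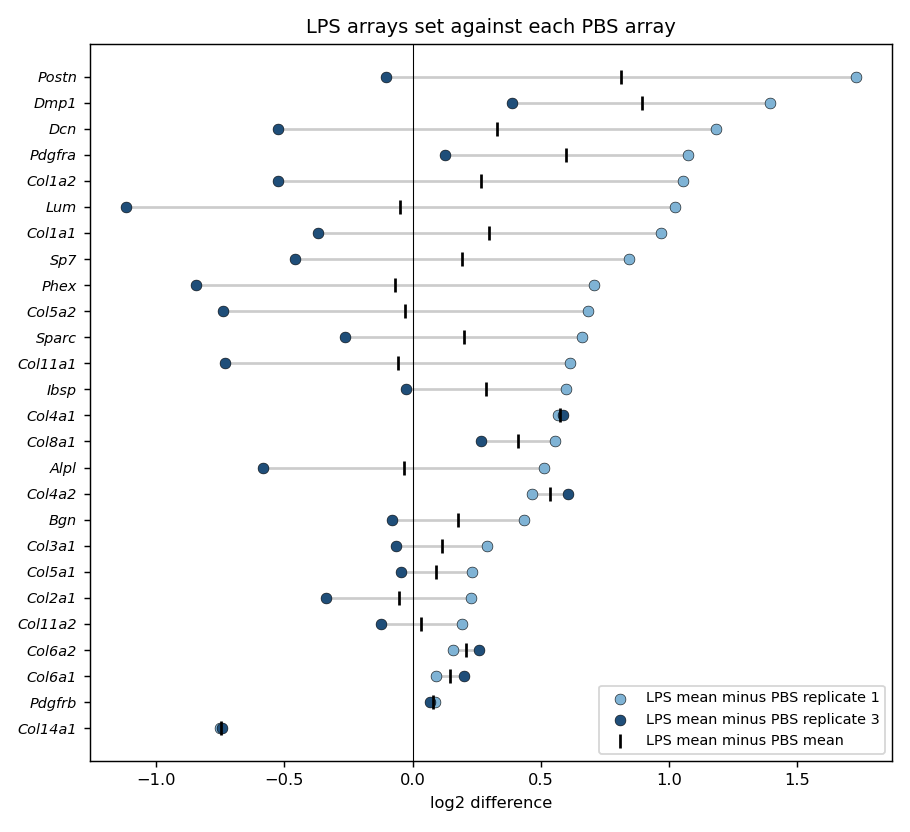
Log2 difference between the LPS mean and PBS replicate 1 (light points), PBS replicate 3 (dark points) or the PBS mean (black ticks), on the x axis, for the 26 members picked by the naming rule. Light and dark points lie on opposite sides of 0 for 17 of the 26, while Col4a1, Col4a2, Col6a1, Col6a2, Col8a1, Col14a1, Dmp1, Pdgfra and Pdgfrb keep their side.

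In the same limma fit with PBS replicate 1 left out, 6 members were called lower, namely Lum, Dcn, Col1a2, Col5a2, Col11a1 and Col14a1, and 2 higher, Col4a1 and Col4a2. That was 10.7% and 3.57% of the members, beside 1.92% and 2.43% of all genes in that fit. With PBS replicate 3 left out, 14 were called higher and only Col14a1 lower. That was 25% and 1.79% of the members, beside 3.49% and 2.12% of all genes. Of the 6 members lower in the first of these fits, Lum, Dcn, Col1a2, Col5a2 and Col11a1 were among the 14 higher in the second. Lum had limma adjusted p-values of 0.000299 at -1.12 and 0.000558 at 1.02. In such fits the lone PBS array is assumed to vary as the LPS arrays do, although the PBS arrays of Lum, Dcn, Col1a2, Col5a2 and Col11a1 lay farther apart than their LPS arrays. Of the 3 calls made with all 4 arrays, each was kept in both of these fits.

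Genes that make collagen were measured beside the members. Of 28 such genes, 2 rose and 0 fell, with a median LPS difference of 0.11. Over all genes 2.39% were called higher and 1.27% lower. Plod3, a lysyl hydroxylase and collagen glucosyltransferase gene, had 9.79 and 9.76 in PBS and 10.38 and 10.23 in LPS, a rise of 0.52 (SE 0.0946, limma adjusted p = 0.0262). P3h2, a prolyl 3-hydroxylase gene whose product acts on type IV collagen, had 8.98 and 8.83 in PBS and 9.40 in each LPS array, a rise of 0.50 (SE 0.0935, limma adjusted p = 0.0309). Their PBS gaps were -0.04 and -0.15, beside a median absolute gap of 0.11 over all genes. A small gap, as that of Plod3, favours a call in this fit.

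Other genes of the list shared the PBS gap of the bone collagens. Plod2, the lysyl hydroxylase gene for the crosslinks of bone collagen, had 7.96 and 9.95 in PBS and 9.72 and 9.22 in LPS. The gaps of Lox, a crosslinking oxidase gene, Creb3l1, a transcription factor gene that acts on type I collagen genes in osteoblasts, and the collagen chaperone gene Serpinh1 were 1.39, 1.24 and 1.06. In all, 6 of the 28 had a gap of 0.5 or more. None of these 6 was called for LPS, though a large gap works against a call in this fit.

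Further osteoblast and osteocyte genes gave 37 measured genes, of which 2 rose and 2 fell, with a median LPS difference of 0.06. Beside them, 2.39% of all genes were called higher and 1.27% lower. A PBS gap of 0.5 or more was found in 15 of the 37, a list chosen with earlier results of these data known. Fat3 (gap 2.29), the citrate transporter gene Slc13a5 (1.91) and Ifitm5, an osteoblast membrane protein gene (1.67), led this list by gap, and their LPS differences were -0.28, 0.03 and 0.12, none called. Mmp13, the collagenase gene of late osteoblasts and hypertrophic cartilage, had 10.37 and 10.94 in PBS and 12.20 and 12.31 in LPS. It rose by 1.599 log2 (SE 0.172, limma adjusted p = 0.00206), a group difference well beyond its PBS gap of 0.57.

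Fgf23, the osteocyte hormone gene that lowers blood phosphate, had 7.88 and 7.64 in PBS and 8.44 and 8.78 in LPS and rose by 0.85 (SE 0.136, limma adjusted p = 0.0156). Bmp6, a bone morphogenetic protein gene, had 9.68 and 9.33 in PBS and 8.65 and 8.86 in LPS, a fall of 0.75 log2 (SE 0.136, limma adjusted p = 0.0262). Ogn, which encodes the small proteoglycan osteoglycin, had 8.80 and 9.33 in PBS and 8.30 and 7.99 in LPS, and it changed by -0.92 (SE 0.181, limma adjusted p = 0.037). The LPS values of Ogn thus lay below both PBS arrays, unlike those of the related Lum and Dcn. Of 9 collagen receptor genes 0 were called by limma. An unadjusted limma p under 0.05 was found for 4 (Itga1, Itga2, Ddr1 and Lair1), beside 3149 of all 19938 genes. The receptor genes with PBS gaps between 0.51 and 0.74 were others, namely Mrc2, Itga10, Itga11 and Ddr2.

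Markers of other cells were set beside the bone genes by their gap between the PBS arrays. PBS replicate 3 stood 0.5 log2 or more above replicate 1 in 0 of 15 markers of marrow reticular stroma, the Cxcl12-expressing cells of the haematopoietic niche. Cxcl12 itself had a gap of -0.04 and Adipoq one of 0.37. Counted in the same direction, PBS replicate 3 above replicate 1, the figure was 0 of 13 for endothelium. In the opposite direction the endothelial gene Vwf, of von Willebrand factor, had a gap of -0.57 (10.49 in PBS replicate 1 and 9.92 in replicate 3), and Plvap, of the endothelial diaphragm, one of -0.48. Vwf was the one gene of the 12 lists with a gap of -0.5 or beyond. The count in the direction of the bone genes was 0 of 10 for pericytes and smooth muscle, 0 of 11 for skeletal muscle, 0 of 6 for megakaryocytes and 0 of 16 for haematopoietic cells. In the fibroblast and periosteum list 1 of 12 reached it, the mesenchymal homeobox gene Prrx1 (0.75).

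Osteoclast genes had the highest such count among the cell type lists, with 4 of 12 at 0.5 or more. These 4 were Ctsk (1.98), Atp6v0d2 (1.53), Oscar (0.61) and Acp5 (0.57), and the list was divided. Its median gap was 0.02, only 6 of the 12 genes had a gap above 0, and Mmp9 and Itgb3 had gaps of -0.36 and -0.32. The part of other marrow cells in the signal of single genes of this list was not tested. Ctsk, the bone-degrading protease cathepsin K, had 8.61 and 10.59 in PBS, replicate 1 first, and 10.45 and 10.90 in LPS. Atp6v0d2, a proton pump subunit gene, had 6.82 and 8.34 in PBS and 8.23 and 8.18 in LPS. The mean log2 value over the 12 osteoclast genes was 9.19, then 9.51, on the PBS arrays and 9.61, then 9.72, on the LPS arrays. That over the 12 non-collagen members was 9.45 and 10.59 in PBS and 10.45 and 10.16 in LPS. The part that the number of bone cells in each sample has in the gap was not tested, and in bulk RNA fewer cells of a type and less RNA per cell cannot be told apart.

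**Figure D5:**
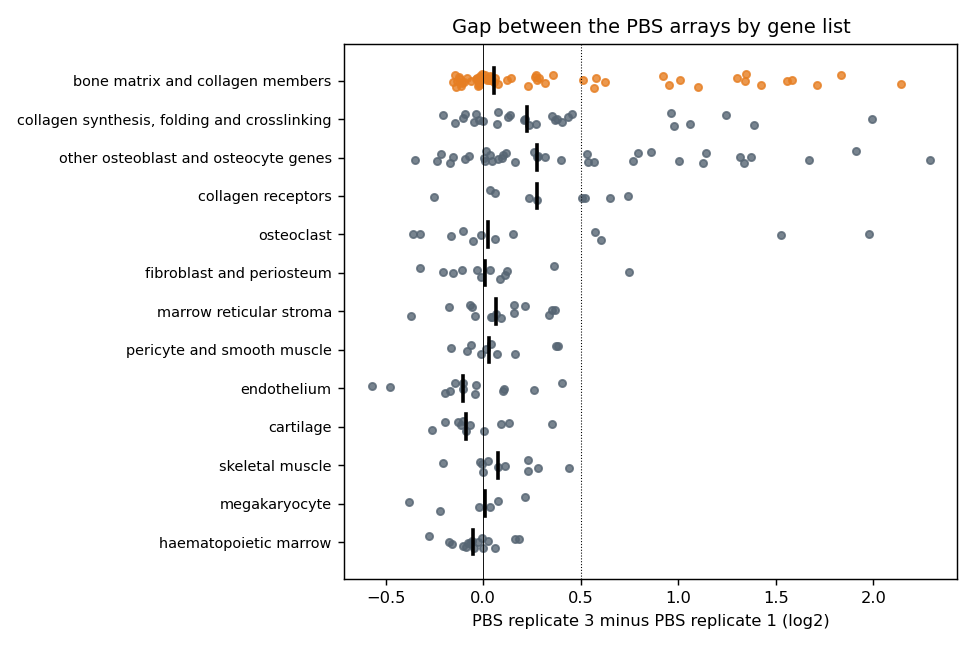
Log2 difference between PBS replicate 3 and PBS replicate 1 (x axis) for each gene (point) of the bone matrix and collagen set and of 12 other gene lists (rows); the black bar is the median of the list and the dotted line marks 0.5. Points beyond 0.5 lie in the rows of the members, collagen synthesis, osteoblast genes, collagen receptors, osteoclasts and, with 1 gene, fibroblasts.

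The LPS differences of the cell type lists were of mixed direction. For comparison, 2.39% of all genes were called higher and 1.27% lower. In reticular stroma 2 of 15 genes fell and 0 rose, the adhesion molecule gene Vcam1 (a difference of -0.79, limma adjusted p = 0.00309) and the leptin receptor gene Lepr (-0.59, limma adjusted p = 0.0178). In endothelium 3 of 13 fell, among them the sinusoidal scavenger receptor gene Stab2 (-1.26, limma adjusted p = 0.000206) and the angiopoietin receptor gene Tek (-0.89, limma adjusted p = 0.00489), and 1 rose, Egfl7 (0.59, limma adjusted p = 0.014). The osteoclast list had 2 of 12 that rose, the RANK gene Tnfrsf11a (0.66, limma adjusted p = 0.00714) and the cell fusion gene Dcstamp (0.50, limma adjusted p = 0.0398), while Ctsk was not called (1.08, limma adjusted p = 0.382).

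Prg4, the lubricin gene, rose in the cartilage list (1.58, limma adjusted p = 0.00196), 1 of 11 genes. The shares of all genes called, 2.39% higher and 1.27% lower, again stand beside these counts. The fibroblast list had 1 of 12 that fell (Pi16, -0.62), the pericyte and smooth muscle list 1 of 10 (Acta2, -0.56) and the haematopoietic list 1 of 16 (the lysozyme gene Lyz2, -0.44). Limma called 0 of 11 skeletal muscle genes and 0 of 6 megakaryocyte genes, with 0 and 0 at an unadjusted p under 0.05. What part these other cells have in the differences of Col4a1, Col4a2 and Col14a1 was not tested.

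Of the 50 genes with the largest excess of PBS replicate 3 over replicate 1 in the whole table, 9 were members, 6 were other listed osteoblast or osteocyte genes and 3 were listed collagen synthesis genes, and the gene at rank 50 had a gap of 1.20. The 9 members were 16.1% of the set. The osteoclast genes Ctsk and Atp6v0d2 were also among the 50, and the other 8 cell type lists and the collagen receptors gave 0. No member was among the 50 genes with the largest excess of PBS replicate 1. Members and lists were chosen with earlier results of these data known, so these counts are a description and not independent evidence.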

How the data were processed

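Bone marrow RNA of 4 samples (300 ng each) was measured on GeneChip Mouse Gene 1.0 ST arrays. The authors deposited log2 expression values per probe set made with RMA, as the submitters' processing notes record; which RMA version ran is not given in the sources used here. Their range fits a log2 scale. Of 35556 probe sets, 21789 had 1 gene symbol in the platform annotation, 1621 had several and 12146 had none named here. The probe set with the highest mean stood for a gene, which gave 19938 genes, with no filter on low values.

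The groups were compared in R 4.3.3 by lmFit and eBayes of limma 3.58.1 (two-sided, no covariate, 2 residual and 5.59 prior degrees of freedom). Calls needed a p under 0.05 after Benjamini-Hochberg adjustment across the 19938 genes. Unless another fit or test is named beside them, p-values, SEs and 95% intervals are from this fit. Gaps between arrays of a group are plain differences. The number of arrays limits the precision. On 10 simulated sets of these 19938 genes the fit recovered 12.1% of changes of 0.5 log2 and 94.4% of changes of 1 log2. Of its calls 4.23% were false. The simulated noise was normal and independent between genes, with variances drawn from limma's fitted prior, so it met the model by design. These rates need not hold for the 17 members with a PBS gap of 0.5 log2 or more, with SEs of 0.157 to 0.558.

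Members and lists were chosen with earlier results of these data known. Named members were the 12 non-collagen genes, the 5 bone collagens, every called member, and the 10 with the largest PBS gap, the 10 with the largest LPS difference and the 10 collagens with the highest mean. In each of 12 other lists, up to 4 called genes and up to 3 with the largest gap were named; further genes with values were picked after these were seen. Alternatives left out each array, used all probe sets or their mean per gene, filtered genes under the lower quartile, changed the variance model, the normalization or the threshold. Tables and figures were made with Python 3.11.15, pandas 2.3.3 and matplotlib 3.10.9.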

Additional observations from a re-analysis of the deposited data

How the results depend on the processing

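With 1 array left out in turn, members called higher by limma numbered 1 to 14 and members called lower 1 to 6; over all genes the calls ran from 385 to 696 higher and from 127 to 423 lower. The extremes for members came without PBS replicate 3 (14 higher) and without PBS replicate 1 (6 lower), and the lowest count higher came without LPS replicate 2, where Dmp1 was called (adjusted p = 0.0381) and Col4a1 and Col4a2 were not. The median member difference was 0.11 without PBS replicate 3 and -0.04 without PBS replicate 1. Leaving out 1 array turned the sign of 17 named members, none of them called with all arrays. In each of the 17 the LPS mean lay between the PBS arrays, so the sign followed from which PBS array was left out. Why the PBS arrays differed was not tested. The differences without PBS replicate 1 and then without PBS replicate 3 ran as follows: Col1a2 from -0.52 to 1.06, Col1a1 from -0.37 to 0.97, Col3a1 from -0.064 to 0.29, Col5a1 from -0.045 to 0.23, Col11a2 from -0.12 to 0.19, Sp7 from -0.46 to 0.84, Sparc from -0.26 to 0.66, Ibsp from -0.026 to 0.60, Postn from -0.10 to 1.73, Dcn from -0.52 to 1.19, Bgn from -0.079 to 0.43, Col5a2 from -0.74 to 0.69, Col11a1 from -0.73 to 0.62, Col2a1 from -0.34 to 0.23, Alpl from -0.58 to 0.52, Phex from -0.85 to 0.71, Lum from -1.12 to 1.02.

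With all probe sets in the fit, 355 probe sets were higher and 63 lower, and 0 members were higher by limma. At an adjusted p under 0.01, 286 genes were higher and 58 lower, 0 of them members that were higher. A linear model without moderation called 0 genes in each direction and 0 members in each direction, with 2185 genes and 4 members at an unadjusted p under 0.05. Col14a1 was called under every alternative run except that model. The mean of probe sets, the filter on low values, the intensity trend with robust eBayes, a second quantile normalization and median centring each left the call and the direction of all 26 named members as they were. Members whose PBS gap exceeded the group difference numbered 37 and 34 without LPS replicates 1 and 2, and 37 to 41 with all probe sets, the mean of probe sets, the filter, the second quantile normalization and median centring. The other alternatives gave no such count, since they change no array value or remove a PBS array. No paired analysis was possible because the groups share only replicate number 1. Depth cannot be judged from array values, and no background level was used.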
